A study of Homo sapiens with 8 samples.

Results

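NRF2 is the transcription factor that turns on the antioxidant and detoxifying enzymes of the cell, and 31 genes of this programme were measured in CU27-treated and untreated liver cancer lines. The genes comprise NFE2L2, which encodes NRF2, its sensor KEAP1, and enzymes of glutathione, thioredoxin, NADPH, carbonyl and heme metabolism with their exporters. They were taken by name from a fixed list, through probe sets that the platform annotation gives exactly 1 gene symbol. All 31 were found, with 70 probe sets, among 18132 named genes and 49293 probe sets that were not controls. The groups were Huh7.5.1 cells kept with 10 μM CU27, Huh7.5.1 cells kept with the solvent DMSO, and Hep3B cells kept with DMSO, all for 48 h and each with 2 arrays labelled as biological replicates. Huh7.5.1 and Hep3B are established human hepatocellular carcinoma lines. Huh7.5.1 is a subline of Huh7 used to grow hepatitis C virus, and Hep3B carries integrated hepatitis B virus DNA. CU27 is known here by its code name only, and the question put to these arrays was how it alters transcript levels. The CU27-treated Hep3B group was left out. Each of its 49395 values per array could be computed from the untreated Hep3B arrays by a straight line to within 1e-06, so it added no reading to them. The same relation also gives the untreated values from the treated ones, so it does not show which pair was measured. The Hep3B DMSO arrays were taken as labelled, and the line comparison and the shared error estimate rest on them.

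In resting cells KEAP1 holds NRF2 and presents it to a ubiquitin ligase, so NRF2 protein is short-lived. Oxidants and electrophiles modify KEAP1, NRF2 then accumulates, pairs with small MAF proteins and binds antioxidant response elements in its target genes. Liver cells express many of these targets, which make and recycle glutathione, reduce thioredoxin, regenerate NADPH, break down heme and export conjugates. Because NRF2 is controlled largely as a protein, the NFE2L2 transcript is not a measure of its activity.

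Promoters of 26 of the 31 genes were matched by symbol in RefSeq on build GRCh38.p14, as windows of 250 bases before and 50 after each annotated start. HMOX1, PRDX1, GSR, ABCC3 and AKR1B10 were not among them. The core of the antioxidant response element, TGACNNNGC, was searched on both strands. It occurred in 10 of 34 windows of these genes (29.4%), against 13.3% of all 35116 windows, and in 9 of 26 genes (34.6%), against 16.1% of all genes. The genes were PGD, GCLM, EPHX1, ME1, TXNRD1, GPX2, KEAP1, CBR1 and PIR. Of the 13 matches, 2, in ME1 and PIR, also hold TGACTCA, the motif of the AP-1 factors. A match is a description of these letters and not evidence of binding. The 250 bases before the start are shown for 4 genes of glutathione, thioredoxin and NADPH metabolism that were higher in Huh7.5.1 than in Hep3B. Matches are in capitals and lie on either strand. These 4 were picked among genes with a match. TXN and SRXN1, also higher in Huh7.5.1, held none, and PGD and a further TXNRD1 window with 2 matches are not shown.
GCLM (chr1:93909431-93909680, minus strand): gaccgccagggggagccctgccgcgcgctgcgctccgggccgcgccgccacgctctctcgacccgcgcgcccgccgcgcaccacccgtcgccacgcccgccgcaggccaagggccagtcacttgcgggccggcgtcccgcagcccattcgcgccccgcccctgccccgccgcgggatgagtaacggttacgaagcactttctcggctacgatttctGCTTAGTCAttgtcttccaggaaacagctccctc
GPX2 (chr14:64942746-64942995, minus strand): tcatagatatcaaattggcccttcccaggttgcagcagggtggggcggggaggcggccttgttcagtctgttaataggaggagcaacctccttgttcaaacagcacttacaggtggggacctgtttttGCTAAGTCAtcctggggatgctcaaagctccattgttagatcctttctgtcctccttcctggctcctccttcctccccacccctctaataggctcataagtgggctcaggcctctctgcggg
TXNRD1 (chr12:104286782-104287031, plus strand): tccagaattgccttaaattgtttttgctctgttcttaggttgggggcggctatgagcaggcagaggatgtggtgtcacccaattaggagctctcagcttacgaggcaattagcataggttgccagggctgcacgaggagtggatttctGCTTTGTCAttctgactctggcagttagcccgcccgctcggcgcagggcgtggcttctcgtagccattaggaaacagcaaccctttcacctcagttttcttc
ME1 (chr6:83431052-83431301, minus strand): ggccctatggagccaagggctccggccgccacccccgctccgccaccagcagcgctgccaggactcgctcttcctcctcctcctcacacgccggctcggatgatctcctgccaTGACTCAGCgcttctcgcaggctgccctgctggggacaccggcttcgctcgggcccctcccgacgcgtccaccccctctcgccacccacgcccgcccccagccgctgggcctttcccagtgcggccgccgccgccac

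The signals were log2 values as deposited, and the brightest probe set, by its mean over the arrays, stood for each gene. A gene was tested where the mean of at least 1 group reached a floor of log2 6.11, the median of all values. All 31 genes passed, 24 of them in every group. GPX2, OSGIN1, AKR1C1, AKR1C2, AKR1B10 and PTGR1 lay below the floor in Hep3B, and AKR1C3 lay below it in both DMSO groups, so AKR1C3 passed only through the CU27 arrays. Differences were fitted with limma over the 6 arrays and 11383 genes, with Benjamini-Hochberg adjusted p-values and a threshold of 0.05, and errors are standard errors of the fit with n = 2 arrays per group. Levels are comparable within a gene, not between genes.

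**Figure D1:**
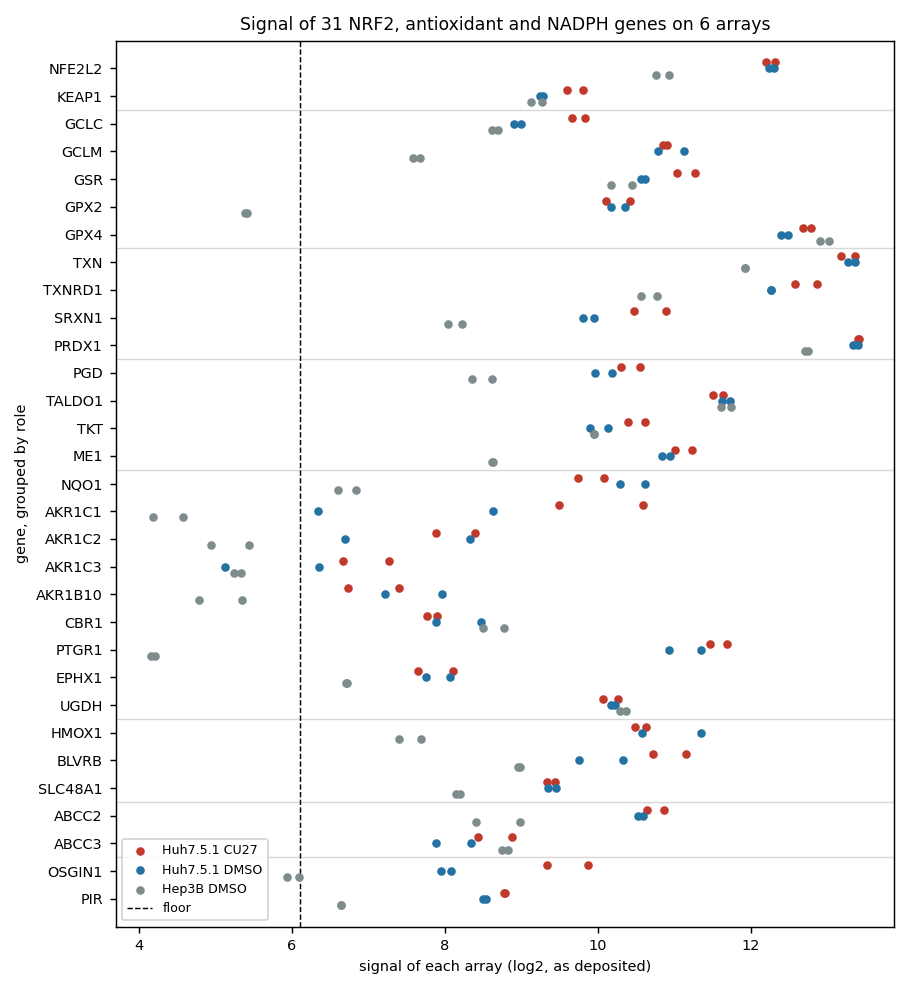
Log2 signal (horizontal axis) of each of the 31 genes (rows, grouped by role) on the 6 arrays. Each point is 1 array, coloured by group, and the dashed line is the floor at log2 6.11. Grey Hep3B points lie to the left of the blue Huh7.5.1 DMSO points in most rows, and 7 genes have Hep3B means below the floor.

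Replicate arrays correlated at 0.991, 0.993 and 0.994 within the CU27, Huh7.5.1 DMSO and Hep3B DMSO groups. All 11 measured markers of the liver lineage, among them ALB and AFP, were at or above the floor in every group. Of 16 measured markers of leukocytes, fibroblasts and endothelium, 11 lay below the floor in all 3 groups, among them PTPRC, COL1A1 and PECAM1. The 11 were 3 of 5 leukocyte, 4 of 6 fibroblast and 4 of 5 endothelial markers, and the rest reached the floor in at least 1 group. Fibroblast markers at or above the floor numbered 1 with CU27, 1 in Huh7.5.1 with DMSO and 2 in Hep3B. For endothelium 1 marker did so, in Huh7.5.1 with DMSO. LYZ, a leukocyte marker, averaged 11.005 with CU27, 11.84 in Huh7.5.1 with DMSO and 7.72 in Hep3B. In bulk RNA a lower number of cells of a kind and less RNA per cell cannot be told apart. That the replicates came from separate cultures is stated only by the word biological in the labels.

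With CU27, 11 of the 31 genes rose in Huh7.5.1 and 0 fell by limma (1, NQO1, had an interval wholly below 0 before adjustment). Genes for glutathione synthesis and recycling (GCLC, GSR), peroxide reduction (SRXN1, GPX4), thioredoxin reduction (TXNRD1) and biliverdin reduction (BLVRB) rose, as did OSGIN1, KEAP1, TKT, AKR1C1 and AKR1C3. AKR1C3 is among the 11 only through the arrays in which it was high, since its DMSO values lay around the floor with a mean below it, and the other 10 were above the floor in both groups. NFE2L2 itself and the widely used NRF2 targets NQO1, HMOX1 and GCLM did not pass the test. Over all genes tested, 12.6% were called higher and 12.1% lower, and 24.7% in either direction. On arrays centred on their medians 9 of the 31 were higher, without KEAP1 and GPX4, and 1, NQO1, was lower, against 12.6% and 14.2% of all genes. Rises that were called and at least 2-fold in the fit, with no account of the floor, covered 2.96% of all genes. By the same rule they were 3 among the 31, those of AKR1C1, OSGIN1 and AKR1C3. That of AKR1C3 was 2.35-fold in the fit but only 1.82-fold as a bound from the floor, so it is not read as a 2-fold rise. The median difference was 0.26 over the 31 genes and 0.02 over all genes. The CU27 and DMSO arrays did not overlap for 19 of the 31, against 63.8% of all genes.

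The number of rises changed with the arrays fitted, as it did over all genes. It was 2 without CU27 replicate 2, against 5.96% of all genes, and 2 without Huh7.5.1 DMSO replicate 2, against 3.98%, and those 2 were GCLC and OSGIN1 in both cases. It was 8 without Huh7.5.1 DMSO replicate 1, against 6.94%, and 12 without CU27 replicate 1, against 14.1%. GCLC and OSGIN1 were the genes that passed under all 18 alternatives tried.

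NFE2L2 and KEAP1 form the switch of the programme. NFE2L2 read 12.32 and 12.20 in CU27-treated Huh7.5.1, against 12.23 and 12.31 in Huh7.5.1 with DMSO. The groups overlapped, and the difference of -0.01 ± 0.10 had a 95% interval of -0.23 to 0.21. KEAP1 read 9.60 and 9.81 with CU27, against 9.24 and 9.29 with DMSO. Both CU27 arrays lay above both DMSO arrays, and KEAP1 rose by 0.44 ± 0.14 (limma adjusted p = 0.0476). This call was at the edge of the threshold and was lost in 12 of 18 alternatives, with adjusted p up to 0.178, among them each array left out except CU27 replicate 1.

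Glutathione genes divided between those that rose and those that did not. GCLC, the catalytic subunit of the rate-limiting enzyme of glutathione synthesis, read 9.67 and 9.84 with CU27, against 8.995 and 8.90 with DMSO. The groups did not overlap, and GCLC rose by 0.81 ± 0.14 (limma adjusted p = 0.0045). All 4 GCLC probe sets were called higher when each was fitted on its own. Those above the floor in both groups had differences of 0.81 to 1.09. The remaining probe set had a DMSO mean of 5.78, below the floor, and was tested only through the CU27 arrays, where it was high. GCLM, the modifier subunit of the same enzyme, read 10.85 and 10.91 with CU27, against 11.13 and 10.79 with DMSO. Its CU27 values lay between the DMSO values, with a difference of -0.08 ± 0.14 and an interval of -0.41 to 0.25 that does not reach the interval of GCLC, 0.49 to 1.12. GSR, which reduces oxidised glutathione with NADPH, read 11.03 and 11.27 with CU27, against 10.57 and 10.62 with DMSO, and rose by 0.56 ± 0.14 (limma adjusted p = 0.0191). GPX4, the peroxidase that reduces lipid peroxides in membranes, read 12.68 and 12.79 with CU27, against 12.49 and 12.40 with DMSO, and rose by 0.29 ± 0.08 (limma adjusted p = 0.0278). Both genes had groups that did not overlap. Their calls were lost without CU27 replicate 2, DMSO replicate 1 or DMSO replicate 2, where adjusted p was 0.0988, 0.0926 and 0.0884 for GSR and 0.122, 0.0678 and 0.174 for GPX4, and that of GPX4 also on centred arrays (adjusted p = 0.0661) and with a variance model without trend (adjusted p = 0.146). GPX2, a peroxidase of epithelial cells, had a difference of 0.01 ± 0.16 (limma adjusted p = 0.987).

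In the thioredoxin system the reductase and the enzyme that repairs peroxiredoxins rose, while their protein substrates did not pass. SRXN1, the sulfiredoxin that reactivates overoxidised peroxiredoxins, read 10.48 and 10.90 with CU27, against 9.95 and 9.80 with DMSO. It rose by 0.81 ± 0.17 (limma adjusted p = 0.0098). TXNRD1, which reduces thioredoxin with NADPH, read 12.58 and 12.87 with CU27, against 12.27 and 12.26 with DMSO. It rose by 0.46 ± 0.12 (limma adjusted p = 0.0214), and all 3 of its probe sets were called higher on their own, by 0.46 to 0.64. For both genes the lowest CU27 array lay above the highest DMSO array. TXN, thioredoxin itself, had a difference of -0.04 ± 0.08, and its 5 probe sets lay between -0.06 and -0.01. PRDX1, a peroxiredoxin, had a difference of 0.05 ± 0.06 with an interval of -0.09 to 0.19. Leaving out CU27 replicate 2, DMSO replicate 1 or DMSO replicate 2 ended the call of TXNRD1, with adjusted p of 0.116, 0.0867 and 0.114, and so did a variance model without trend (adjusted p = 0.0643). Leaving out CU27 replicate 2 or DMSO replicate 2 did so for SRXN1, to adjusted p of 0.0511 and 0.08.

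Of the 4 genes that supply NADPH or belong to the pentose phosphate pathway, TKT rose. TKT, the transketolase of the non-oxidative branch, read 10.40 and 10.62 with CU27, against 10.13 and 9.90 with DMSO, and rose by 0.49 ± 0.14 (limma adjusted p = 0.0301). Its groups did not overlap. The call was lost without CU27 replicate 2 or DMSO replicate 2 and without one or both Hep3B arrays, with adjusted p up to 0.202 (0.058 with the Huh7.5.1 arrays alone). PGD, which makes NADPH in the oxidative branch, had a difference of 0.35 ± 0.16, and ME1, the cytosolic malic enzyme, one of 0.23 ± 0.13. TALDO1, transaldolase, had a difference of -0.11 ± 0.10. None of these 3 passed the test.

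**Figure D2:**
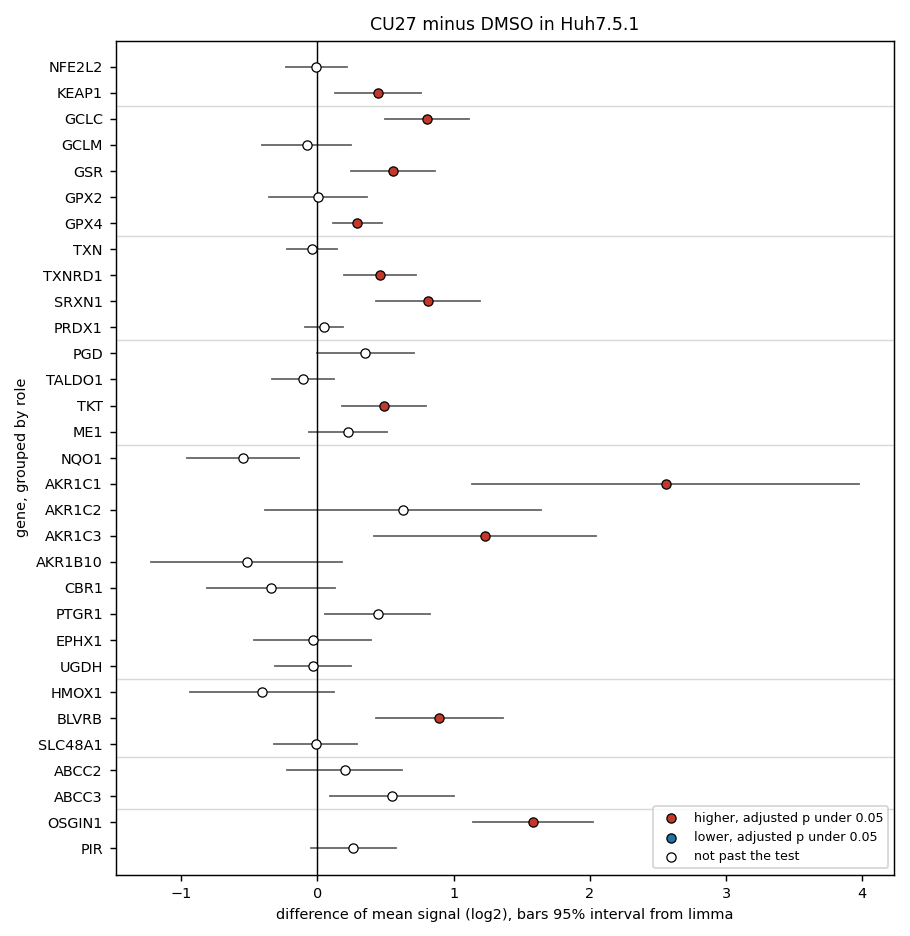
Difference of mean log2 signal between CU27 and DMSO in Huh7.5.1 for each of the 31 genes (rows, grouped by role), with 95% intervals from limma as bars. Filled points passed the test. The 11 filled points lie above 0, with AKR1C1 at 2.56 the farthest and with the widest interval, and NQO1 at -0.54 is the lowest open point.

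AKR1C1 had the highest fitted difference of the 31 genes, and its replicates lay far apart. It belongs to the aldo-keto reductases, which reduce steroids, aldehydes and ketones with NADPH. AKR1C1 read 9.49 and 10.59 with CU27, against 8.63 and 6.34 with DMSO. Both CU27 arrays were higher than both DMSO arrays, but the DMSO replicates differed by 2.29, the widest gap between them among all 11383 genes tested. AKR1C1 rose by 2.56 ± 0.63 (limma adjusted p = 0.0187), and its other probe set gave 2.64. AKR1C3 read 6.67 and 7.27 with CU27, against 6.35 and 5.12 with DMSO, and was at least 1.82-fold higher, a bound because its DMSO mean lay below the floor (limma adjusted p = 0.0362). AKR1C2 read 7.89 and 8.40 with CU27, against 8.33 and 6.70 with DMSO. Its groups overlapped, and its difference of 0.63 ± 0.45 did not pass. In all 3 genes DMSO replicate 1 was higher than DMSO replicate 2, by 2.29, 1.63 and 1.23 for AKR1C1, AKR1C2 and AKR1C3, gaps that ranked 1, 10 and 24 among the genes tested. Without DMSO replicate 2 the AKR1C1 difference was 1.41 (adjusted p = 0.0723) and that of AKR1C3 0.62 (adjusted p = 0.204). Without DMSO replicate 1 AKR1C2 passed at 1.45 (adjusted p = 0.0189). Both AKR1C1 and AKR1C3 also lost their calls without CU27 replicate 2, at 2.01 (adjusted p = 0.13) and 0.93 (adjusted p = 0.206), and AKR1C3 without either Hep3B array, at adjusted p = 0.0722 and 0.0727, or without both, at adjusted p = 0.0708. AKR1B10, a relative that reduces retinal and other aldehydes, did not show this order. It read 6.73 and 7.40 with CU27, against 7.22 and 7.96 with DMSO, with a difference of -0.52 ± 0.31 that did not pass.

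The AKR1C genes are neighbours on chromosome 10 with related transcripts, so signal may be shared among their probe sets and the level of each member is uncertain. Their transcripts and probes were not compared here. Sequence was compared only at the start of AKR1C1 and AKR1C2. The upstream stretches of AKR1C1 and AKR1C2 are shown aligned without gaps, and they were equal at 245 of 246 bases (99.6%), with the base that differs in capitals.
AKR1C1 (chr10:4963169-4963414, plus strand): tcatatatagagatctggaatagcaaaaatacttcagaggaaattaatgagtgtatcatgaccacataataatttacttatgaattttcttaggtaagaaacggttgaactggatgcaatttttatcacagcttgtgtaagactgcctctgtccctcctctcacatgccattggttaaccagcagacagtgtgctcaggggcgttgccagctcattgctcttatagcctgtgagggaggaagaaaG
AKR1C2 (chr10:5003862-5004107, minus strand): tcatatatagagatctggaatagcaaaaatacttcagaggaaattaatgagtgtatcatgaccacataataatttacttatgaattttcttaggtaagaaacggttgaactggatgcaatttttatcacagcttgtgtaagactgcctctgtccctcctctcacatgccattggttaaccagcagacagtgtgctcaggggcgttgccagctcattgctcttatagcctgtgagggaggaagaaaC
Neither window held TGACNNNGC.

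**Figure D3:**
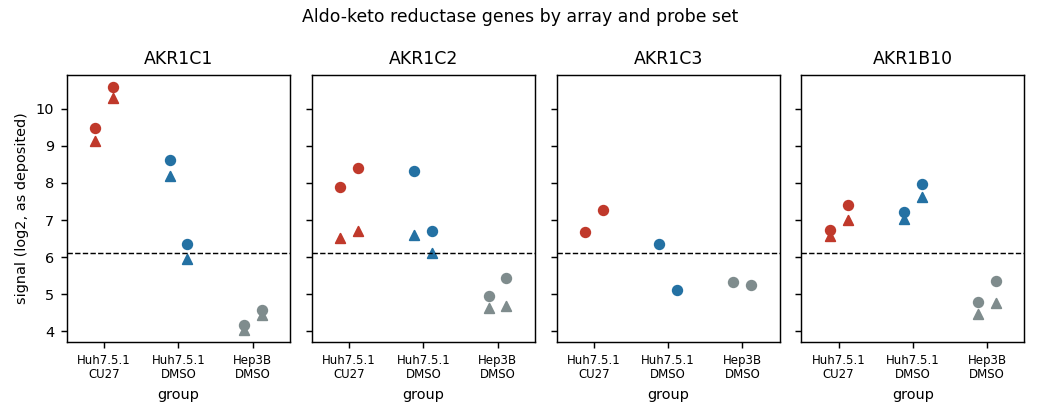
Log2 signal (vertical axis) of AKR1C1, AKR1C2, AKR1C3 and AKR1B10 on each array, by group. Each symbol shape is 1 probe set above the floor, and the dashed line is the floor. In the 3 AKR1C panels the DMSO arrays of Huh7.5.1 lie far apart, with replicate 1 (left) higher, while in the AKR1B10 panel replicate 1 is lower.

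No other detoxifying enzyme was called higher in this fit. NQO1, the quinone reductase that is among the most used readouts of NRF2, read 9.74 and 10.09 with CU27, against 10.29 and 10.62 with DMSO. Both CU27 arrays lay below both DMSO arrays. The difference of -0.54 ± 0.18 missed the threshold (limma adjusted p = 0.0576), passed it when arrays were centred on their medians (adjusted p = 0.028), and its other probe set was called lower at -0.89. PTGR1, which reduces alkenals and prostaglandins, had a difference of 0.44 ± 0.17 (limma adjusted p = 0.091). CBR1, a carbonyl reductase, had one of -0.34 ± 0.21. EPHX1, the microsomal epoxide hydrolase, and UGDH, which makes the sugar donor for glucuronidation, had differences of -0.03 each, with standard errors of 0.19 and 0.12.

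In the heme branch 1 of 3 genes rose. HMOX1, heme oxygenase 1, which opens the heme ring, read 10.63 and 10.48 with CU27, against 11.35 and 10.57 with DMSO. One CU27 array lay just above the lower DMSO array, and the difference of -0.41 ± 0.23 did not pass. Without DMSO replicate 2 it was -0.79 (adjusted p = 0.0463). BLVRB, which reduces biliverdin and flavins, read 10.72 and 11.16 with CU27, against 10.33 and 9.76 with DMSO. It rose by 0.90 ± 0.21 (limma adjusted p = 0.0146) with no overlap, a call that did not hold when CU27 replicate 2 (adjusted p = 0.0919) or DMSO replicate 2 (adjusted p = 0.109) was left out. SLC48A1, a heme transporter of endosomes and lysosomes, had a difference of -0.01 ± 0.13.

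Neither exporter of conjugates passed by the probe set used. ABCC2, the canalicular pump for glutathione and glucuronide conjugates, had a difference of 0.20 ± 0.19, while its other probe set was called higher at 0.81. ABCC3, its basolateral counterpart, had a difference of 0.55 ± 0.20 (limma adjusted p = 0.0793) and passed without CU27 replicate 1 (adjusted p = 0.0365). Its other probe set gave -0.02.

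OSGIN1, an oxidative stress-induced growth inhibitor and NRF2 target, gave the rise with the smallest adjusted p among the 31. It read 9.33 and 9.87 with CU27, against 8.08 and 7.95 with DMSO. The CU27 arrays were higher than the DMSO arrays by more than the spread of either group. OSGIN1 rose by 1.58 ± 0.19, which is 3.00-fold (limma adjusted p = 0.00137), and both of its probe sets were called higher, at 1.58 and 1.39. PIR, an iron-binding nuclear protein, had a difference of 0.26 ± 0.14 and did not pass.

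**Figure D4:**
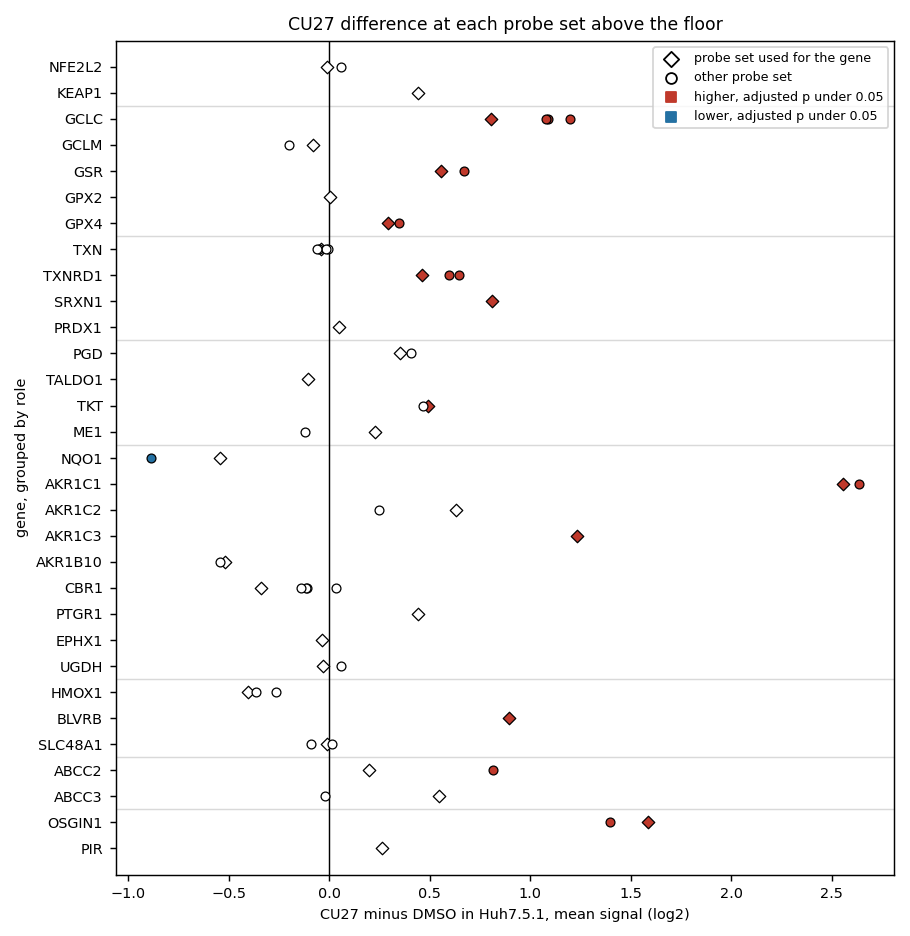
CU27 minus DMSO difference in Huh7.5.1 (log2) at each of the 63 probe sets of the 31 genes that reached the floor, by gene. Diamonds mark the probe set used for the gene, and filled symbols passed the test over all probe sets. All probe sets of GCLC, GSR, GPX4, TXNRD1, OSGIN1 and AKR1C1 are filled and above 0, while those of ABCC2, ABCC3 and ME1 lie apart. The GCLC probe set at 1.20 and the AKR1C3 probe set reached the floor only with CU27.

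Fitted one by one over 25602 probe sets, 20 of the 63 tested probe sets of these genes were called higher and 1, of NQO1, lower. Over all 25602, 2679 were called higher and 2887 lower, or 21.7% in either direction. The 20 include a GCLC and an AKR1C3 probe set that reached the floor only with CU27. Between the lines 43 of the 63 were called higher and 5 lower, against 11451 higher and 4963 lower over all 25602, or 64.1% in either direction. The 43 include probe sets below the floor in Hep3B.

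The line comparison asked how the same genes stood without CU27. Huh7.5.1 had higher levels than Hep3B of 21 of the 31 genes and lower levels of 2, GPX4 and ABCC3. Among the 21, GPX2, OSGIN1, AKR1C1, AKR1C2, AKR1B10 and PTGR1 lay below the floor in Hep3B. They were tested only through the Huh7.5.1 arrays, where they were high, so the filter left them no way to be called lower. They are counted in the 21 and in the medians below. The higher genes included NFE2L2, NQO1, HMOX1, GCLM, GPX2, PTGR1 and all 4 thioredoxin genes. The background was high, since 41% of all genes were called higher, 22.9% lower and 64% in either direction. The whole distribution was shifted, with a median difference of 0.22 over all genes tested. With arrays centred on their medians the split was 31.5% higher and 30.8% lower over all genes, and 21 higher and 4 lower among the 31, with UGDH and CBR1 added to the lower genes. On that scale 19 of the 31 were called higher and at least 2-fold, against 14.8% of all genes, and 0 were called lower and at least 2-fold, against 12.4%. The 19 include the genes below the floor in Hep3B, counted by their fitted differences. The median over the 31 was 1.43 as deposited and 1.23 centred. The arrays did not overlap for 27 of the 31, against 84.8% of all genes. The 3′ to 5′ difference of the ACTB control probe sets, a measure of RNA integrity, was 0.94 and 1.06 in Huh7.5.1 and 2.28 and 1.60 in Hep3B, and its part in these differences was not tested. Both comparisons share the Huh7.5.1 DMSO arrays. The Hep3B DMSO arrays held exactly equal values at 1077 of 49293 probe sets, against 0 in each Huh7.5.1 group, and what this does to the line differences was not tested. Differences below are as deposited, with the centred value given where it matters.

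**Figure D5:**
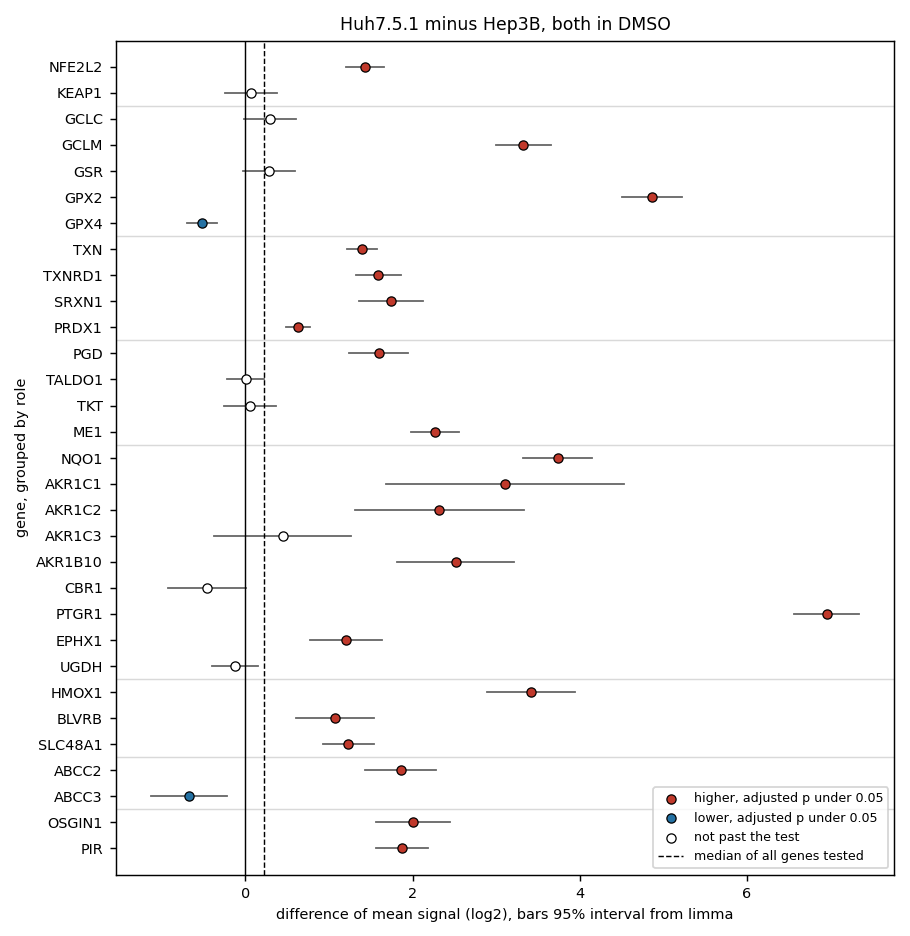
Difference of mean log2 signal between Huh7.5.1 and Hep3B, both with DMSO, for each of the 31 genes (rows, grouped by role), with 95% intervals from limma as bars. The dashed line marks the median of all genes tested, 0.22, and filled points passed the test. PTGR1 and GPX2 lie farthest to the right, with Hep3B values below the floor that leave bounds of 32.7-fold and 17.8-fold, and GPX4 and ABCC3 are the filled points below 0.

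NFE2L2 read 12.23 and 12.31 in Huh7.5.1, against 10.93 and 10.76 in Hep3B. The lines did not overlap, and NFE2L2 was higher by 1.43 ± 0.10, or 2.69-fold (limma adjusted p = 4.16e-06), and by 1.23 relative to centred arrays. KEAP1 read 9.24 and 9.29 in Huh7.5.1, against 9.13 and 9.27 in Hep3B, with a difference of 0.07 ± 0.14 that did not pass.

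Of 9 reductases and detoxifying enzymes, 6 were higher in Huh7.5.1. Of these, NQO1 and EPHX1 were above the floor in both lines. PTGR1, AKR1B10, AKR1C1 and AKR1C2 were tested only through the Huh7.5.1 arrays, where they were high. PTGR1 read 11.35 and 10.94 in Huh7.5.1, against 4.22 and 4.16 in Hep3B, where it lay below the floor. It was at least 32.7-fold higher in Huh7.5.1 (limma adjusted p = 1.89e-08). NQO1 read 10.29 and 10.62 in Huh7.5.1, against 6.85 and 6.60 in Hep3B, and was 13.3-fold higher (log2 3.73 ± 0.18, limma adjusted p = 5.79e-07). Both lines were thus far apart for these enzymes in every array. AKR1B10, AKR1C1 and AKR1C2 lay below the floor in Hep3B and were at least 2.79-fold, 2.60-fold and 2.65-fold higher in Huh7.5.1. The AKR1C1 call was lost when values were raised to the floor (adjusted p = 0.139). EPHX1 was higher by 1.20 ± 0.19, and AKR1C3, CBR1 and UGDH did not pass on the deposited scale, at 0.44, -0.46 and -0.13. CBR1 and UGDH were lower on centred arrays, at -0.66 and -0.33 (adjusted p = 0.0144 and 0.0402). As deposited, the 5 CBR1 probe sets above the floor gave -0.46 to 0.21, and none passed when fitted on its own. The other UGDH probe set was called lower on its own, at -0.38. AKR1C3 passed without Huh7.5.1 DMSO replicate 2, at 1.06 (adjusted p = 0.0134).

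Of the subunits of glutamate-cysteine ligase, GCLM passed between the lines. It read 11.13 and 10.79 in Huh7.5.1, against 7.59 and 7.68 in Hep3B, and was higher by 3.32 ± 0.14 (limma adjusted p = 3.19e-07). GCLC read 8.995 and 8.90 in Huh7.5.1, against 8.62 and 8.70 in Hep3B, with a difference of 0.29 ± 0.14 that did not pass. The intervals of the line difference, 3.00 to 3.65 for GCLM and -0.02 to 0.60 for GCLC, did not meet. Other GCLC probe sets above the floor gave 0.07 and 0.11 and did not pass on their own. The GCLC probe set below the floor in both lines gave 1.18. GCLC passed with the mean of its probe sets, at 0.41 (adjusted p = 0.0357), a mean that includes the probe set below the floor. GPX2 read 10.36 and 10.17 in Huh7.5.1, against 5.38 and 5.41 in Hep3B, and was at least 17.8-fold higher. GPX4 went the other way. It read 12.49 and 12.40 in Huh7.5.1, against 12.91 and 13.02 in Hep3B, and was lower by 0.52 (SE 0.08, limma adjusted p = 0.000429) and also on centred arrays, at -0.73. GSR had a difference of 0.28 ± 0.14 and did not pass by the probe set used. Its other probe set was called higher when fitted on its own, at 0.93 (limma adjusted p = 0.00118). The mean of the GSR probe sets passed at 0.61 (adjusted p = 0.00492).

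All 4 thioredoxin genes were higher in Huh7.5.1, on both scales. SRXN1 was higher by 1.74 ± 0.17, TXNRD1 by 1.59 ± 0.12, TXN by 1.39 ± 0.08 and PRDX1 by 0.63 ± 0.06. The smallest of these, PRDX1, read 13.33 and 13.40 in Huh7.5.1, against 12.72 and 12.75 in Hep3B, and was 0.43 higher on centred arrays. Other probe sets of TXN gave up to 2.22 and of TXNRD1 up to 2.41.

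Of the NADPH and pentose phosphate genes, the NADPH-forming ME1 and PGD were higher in Huh7.5.1 and the non-oxidative TKT and TALDO1 did not pass. ME1 read 10.95 and 10.85 in Huh7.5.1, against 8.62 and 8.64 in Hep3B, a difference of 2.27 ± 0.13. PGD read 10.19 and 9.97 in Huh7.5.1, against 8.36 and 8.61 in Hep3B, a difference of 1.59 ± 0.16. Neither pair of groups overlapped. TKT and TALDO1 had differences of 0.06 ± 0.14 and 0.00 ± 0.10, and their signs and calls changed with the probe set and the scaling, TKT to -0.55 (adjusted p = 0.00932) and TALDO1 to -0.29 (adjusted p = 0.0238) or 0.42 (adjusted p = 0.0158). The Hep3B values of TKT were exactly equal on both arrays, as were those of PIR, so these arrays add no spread to their errors.

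All 3 heme genes and both other targets were higher in Huh7.5.1. HMOX1 read 11.35 and 10.57 in Huh7.5.1, against 7.69 and 7.41 in Hep3B, and was 10.7-fold higher (log2 3.41 ± 0.23, limma adjusted p = 3.87e-06). BLVRB was higher by 1.07 ± 0.21 and SLC48A1 by 1.23 ± 0.13. PIR was higher by 1.88 ± 0.14, and OSGIN1, below the floor in Hep3B, at least 3.76-fold. The exporters went in opposite directions. ABCC2 was higher by 1.86 ± 0.19, and ABCC3 was lower by 0.67 (SE 0.20, limma adjusted p = 0.0165). The ABCC3 call was lost without Huh7.5.1 DMSO replicate 1 (adjusted p = 0.134) and without either Hep3B array (adjusted p = 0.0859 and 0.0636), over a range up to 0.355, and its other probe set gave 0.32.

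Further genes of the same pathways were counted from 6 lists, with 63 genes tested. With CU27, 9 were called higher and 16 lower, with a median of -0.15, against 12.6% and 12.1% of all genes and a median of 0.02, so the higher count lay near that of all genes. Among the regulators and partners of NRF2, the small MAF genes MAFF and MAFG rose by 0.80 ± 0.21 and 0.48 ± 0.14, while the ligase scaffold CUL3 was at -0.61 ± 0.14 and the autophagy receptor SQSTM1, which binds KEAP1, at -0.40 ± 0.09, and these 4 of 9 passed. Of 9 glutathione genes, the secreted peroxidase GPX3 (1.26 ± 0.20) and the glutaredoxin GLRX (0.69 ± 0.16) rose, and the cystine importer SLC7A11 (-1.48 ± 0.30) and the glutathione-degrading CHAC1 (-0.86 ± 0.17) fell. Of 13 thioredoxin, peroxiredoxin and superoxide enzymes, 1 rose, the superoxide dismutase SOD1 (0.54 ± 0.11), and 2 fell, SESN2 (-1.18 ± 0.22) and the thioredoxin inhibitor TXNIP (-0.79 ± 0.13). Of 12 other genes that supply NADPH or belong to the pentose phosphate or folate pathways, 0 rose and 4 fell. The mitochondrial folate enzyme MTHFD1L (-1.17 ± 0.16) and the pentose epimerase RPE (-0.54 ± 0.13) were lowest. Of 13 other reductases, conjugating enzymes and exporters, 2 rose, the drug pump ABCG2 (1.01 ± 0.18) and UGP2 (0.33 ± 0.10), and 5 were called lower, with the carbonyl reductase CBR4 (-1.25 ± 0.17) and the exporter ABCC4 (-1.02 ± 0.16) lowest. One of the 5, UGT2B7, lay below the floor in both Huh7.5.1 groups and was tested only because it is high in Hep3B. Of 7 iron and heme genes, the iron exporter SLC40A1 (0.99 ± 0.25) and the heme synthesis enzyme ALAS1 (0.67 ± 0.18) rose, and ferrochelatase, FECH (-0.54 ± 0.15), fell.

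Between the lines, 31 of these 63 genes were called higher in Huh7.5.1 and 12 lower, with a median of 0.30, and on centred arrays 21 higher and 20 lower, with a median of 0.10. These counts lay near the shares over all genes, 41% and 22.9% as deposited and 31.5% and 30.8% centred. Both chains of the cystine importer were among the largest, SLC7A11 at 3.30 ± 0.30 and SLC3A2 at 2.61 ± 0.11, and 6 of 9 glutathione genes were higher on both scales. TXNIP (3.50 ± 0.13) and SESN2 (2.42 ± 0.22) were higher, and catalase, CAT (-2.01 ± 0.17), and PRDX2 (-0.38 ± 0.15) were lower, within a list of 13 with 4 higher and 2 lower as deposited but 2 higher and 6 lower on centred arrays. MAFF (1.06 ± 0.21) and SQSTM1 (1.00 ± 0.09) were among 4 of 9 regulators that were higher, and the ligase subunit RBX1 (-0.86 ± 0.14) was lower, with 2 higher and 3 lower on centred arrays. Of the 12 genes of NADPH supply, the pentose phosphate and the folate pathways, 7 were higher, led by ME3 (1.23 ± 0.15) and MTHFD2 (1.07 ± 0.12). Of the same list 2 were lower, NNT (-0.71 ± 0.22) and MTHFD1 (-0.60 ± 0.15), with 4 higher and 3 lower on centred arrays. Of 13 reductases, conjugating enzymes and exporters 8 were higher, led by ABCG2 (2.42 ± 0.18) and ABCC4 (2.06 ± 0.16), and 3 lower, among them ABCC1 (-1.90 ± 0.14) and the glucuronosyltransferase UGT2B7, which was at least 7.38-fold lower since it lay below the floor in Huh7.5.1, with 7 higher and 4 lower on centred arrays. Of 7 iron and heme genes 4 were lower, with BLVRA (-1.28 ± 0.18) and SLC40A1 (-1.06 ± 0.25) lowest, and the 2 called higher, FECH and FTL, did not pass on centred arrays.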

How the data were processed

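Expression was measured on 1 Affymetrix 3′ expression array per sample. The values are probe set signals on a log2 scale as deposited by the authors, a scale read from their range. MAS5 is named without a version in the submitters' processing notes, and the scaling and any centring between arrays are not given in the sources used here. The column medians of Huh7.5.1 were 6.26 and 6.25 with CU27 and 6.27 and 6.23 without it, and those of Hep3B 5.85 and 5.82. Of 49395 probe sets, 102 controls were left out, 44988 had 1 gene symbol in the platform annotation, 1832 several and 2473 none.

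Groups were fitted over 6 arrays in limma 3.58.1 under R 4.3.3 (lmFit, contrasts, eBayes with intensity trend, 3 residual degrees of freedom), two-sided, over genes whose mean reached the 50th percentile of all values in at least 1 group. No exact test of 2 arrays against 2 was used, since its p cannot go below 0.333. The procedure was tested on simulated data with 200 changed genes. It recovered 53% of 2-fold and 93% of 4-fold changes for CU27, and 63% and 95% between lines. A gene that did not pass may therefore still differ. Array number limits the precision. Alternatives covered the choice of probe set, the filter, the scaling, the variance model, the arrays in the fit and a replicate block.

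The genes and lists were chosen with earlier results of these data known. All 31 genes are given, and of each other list up to 2 genes each way past the test with the largest differences. Promoter sequences come from RefSeq tables on GRCh38.p14 and figures from Python 3.11.15.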

Additional observations from a re-analysis of the deposited data

How the results depend on the processing

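Of the 11 rises with CU27, 2 held in all alternatives and 9 were lost in at least 1, while 14 of the other 20 genes passed in none. Between lines 21 of 23 calls held in all alternatives run, the exceptions being AKR1C1 and ABCC3. The counts of all genes ranged, leaving out 1 array at a time, from 454 to 1610 higher and 446 to 1313 lower with CU27, and from 3802 to 4817 higher and 2038 to 2750 lower between lines. For the 31 genes the ranges were 2 to 12 and 0 to 1 with CU27, and 21 to 22 and 1 to 2 between lines. Fitting each probe set called 2679 probe sets higher and 2887 lower with CU27, and 11451 and 4963 between lines, over more features. Without a filter 7517 genes were higher between lines, and with quantile normalization 4013 were lower. One gene was called lower with CU27, NQO1, with the mean of all probe sets, the higher floor, either centring or quantile normalization, a count of 1 in each, and 1, HMOX1, without DMSO replicate 2. Between lines the lower genes of the 31 numbered 1 with the mean of probe sets, against 1971 of all 9815 genes tested in that fit. They numbered 4 with median centring, against 3501 of 11383, and 5 with 75th percentile centring, against 3899 of 11383. With quantile normalization they numbered 4, against 4013 of 11428. Differences of 7 genes between lines and 9 with CU27 changed sign in at least 1 alternative, and 3 of these, between lines, did so with a call on 1 side. TALDO1 was at -0.29 with 75th percentile centring, TKT at -0.55 and ABCC3 at 0.32 without _x_at and _s_at probe sets. For all of these the cause was not tested. Replicate numbers 1 and 2 are shared by the Huh7.5.1 groups, but the labels do not say that they mark a pairing. Differences between replicates 1 and 2 correlated at 0.18 between these groups over genes. With the replicate block, 1768 of all 10942 genes tested in that fit rose and 1775 fell. Of the 31 genes 13 rose, PTGR1 and ABCC3 being added, and 2, NQO1 and AKR1B10, fell. Between lines no paired analysis was possible because the groups share fewer than 2 replicate numbers.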

Other observations

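Several of these genes varied between untreated replicates of Huh7.5.1 more than most genes did. Beside the AKR1C genes, HMOX1 differed by 0.77 between the DMSO arrays, a gap reached by 1.28% of the 11383 genes tested, and BLVRB and CBR1 by 0.56 and 0.58, reached by 3.87% and 3.47%, with replicate 1 higher in all of them. AKR1B10 differed by 0.74 with replicate 2 higher, a gap reached by 1.51%. In CU27-treated Huh7.5.1 AKR1C1 differed by 1.10 with replicate 2 higher, a gap reached by 0.562%.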
